A study of Mus musculus with 27 samples.

Results

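The 10 genes described here regulate germ cells and primordial follicles, the resting store of oocytes in the ovary. They are Figla, Nobox, Lhx8, Sohlh1, Sohlh2, Ddx4, Dazl, Kit, Kitl and Taf4b, chosen by name, and all 10 were found among the 51789 genes of the count table. RNA from whole mouse ovary had been sequenced as tags at the 3' end of polyadenylated transcripts (QuantSeq) in 27 libraries from 2 experiments. Experiment 1 comprised 5 young and 4 aged animals without treatment and 4 aged animals treated with TRi-1, which blocks thioredoxin reductase 1. Experiment 2 comprised 5 young and 5 aged animals without treatment and 4 aged animals treated with auranofin, a gold compound that blocks thioredoxin reductases. The series title places the study in work on thioredoxin reductase 1 and inflammation of ageing. The labels give no strain, age in months, dose or duration, and do not say how an untreated mouse was handled. Replicates were taken as separate mice; where they are not, p-values measure only the spread between these libraries.

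In the ovary, oocytes are enclosed singly by flattened pregranulosa cells in primordial follicles, a store that is laid down early in life and runs down with age. FIGLA, SOHLH1 and SOHLH2 are helix-loop-helix transcription factors, and NOBOX and LHX8 are homeodomain factors, that switch on oocyte genes such as those of the zona pellucida. DDX4 and DAZL act on germ cell RNA, while the receptor KIT on the oocyte and its ligand from granulosa cells (Kitl) signal through PI3K to the transcription factor FOXO3 to govern the awakening of resting follicles. TAF4B is a gonad-enriched subunit of TFIID, the complex that starts transcription at promoters.

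All 10 are protein-coding genes of GENCODE M21 (GRCm38, the mm10 build). On the plus strand lie Figla (chr6:86016171-86020996), Sohlh2 (chr3:55182028-55209957), Kit (chr5:75574916-75656722) and Kitl (chr10:100015630-100100416), together with Taf4b, whose position is given with its values. On the minus strand lie Nobox (chr6:43303674-43309554), Lhx8 (chr3:154306294-154330659), Sohlh1 (chr2:25842995-25847248), Ddx4 (chr13:112598333-112652475) and Dazl (chr17:50279395-50293636). No member overlapped another gene of the count table.

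Because 3 of the factors belong to the helix-loop-helix class, which binds the E-box CANNTG, and NOBOX to the homeodomain class, promoters were searched on both strands for CANNTG and for TAATTG. The RefSeq table (GRCm38.p6) held 9 of the 10 members, without Taf4b. In the 250 bases before the start, CANNTG occurred 5 times at Sohlh1, 2 times each at Figla and Nobox, 1 time each at Sohlh2, Ddx4 and Dazl, and 0 times at Lhx8, Kit and Kitl. Besides those of Figla and Dazl, described below, the windows of Lhx8, Sohlh2, Ddx4, Kit and Kitl reach into the annotated gene. The match of Ddx4 lies within its gene. Of all 32851 promoters in the table, 66.2% held at least 1 match, 31.8% at least 2 and 1.15% at least 5, so a single match is the common case and the 5 of Sohlh1 are not. TAATTG was found in 0 of the 9 promoters, against 7.17% of all promoters; no match says only that these letters are not in this window. The promoters of Figla, Nobox and Dazl, whose counts separated young from aged ovaries in experiment 1, and of Sohlh1, which holds the most matches, are shown 5' to 3' on the gene's own strand, with CANNTG in capitals. The windows are chr6:86016941-86017190 for Figla, chr6:43309555-43309804 for Nobox, chr2:25847249-25847498 for Sohlh1 and, shortened to 234 bases before the first annotated exon, chr17:50293637-50293870 for Dazl. The Figla window lies before the start of its coding transcript, within the first intron of a longer transcript.
Figla: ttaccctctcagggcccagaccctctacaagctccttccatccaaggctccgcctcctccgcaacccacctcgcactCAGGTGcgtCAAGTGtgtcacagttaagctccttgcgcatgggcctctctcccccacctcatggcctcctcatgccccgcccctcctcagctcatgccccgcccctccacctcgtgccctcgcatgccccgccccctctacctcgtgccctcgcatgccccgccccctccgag
Nobox: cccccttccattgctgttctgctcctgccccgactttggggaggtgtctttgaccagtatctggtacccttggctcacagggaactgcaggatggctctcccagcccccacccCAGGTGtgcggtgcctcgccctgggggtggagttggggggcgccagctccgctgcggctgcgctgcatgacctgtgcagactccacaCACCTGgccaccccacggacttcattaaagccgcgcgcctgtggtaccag
Sohlh1: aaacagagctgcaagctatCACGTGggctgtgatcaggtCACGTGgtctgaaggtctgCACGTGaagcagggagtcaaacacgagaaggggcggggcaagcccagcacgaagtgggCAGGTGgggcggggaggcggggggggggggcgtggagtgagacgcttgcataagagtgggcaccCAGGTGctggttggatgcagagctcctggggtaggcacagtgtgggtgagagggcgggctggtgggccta
Dazl: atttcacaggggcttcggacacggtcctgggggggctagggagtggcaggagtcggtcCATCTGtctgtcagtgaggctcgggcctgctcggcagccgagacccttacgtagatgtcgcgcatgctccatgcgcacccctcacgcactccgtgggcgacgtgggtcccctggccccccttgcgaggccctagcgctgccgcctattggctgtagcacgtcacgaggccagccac

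Library totals ran from 6460903 to 14814381 counts. Levels are given as CPM, that is counts scaled to a common library size with TMM factors, and differences as log2 fold changes with their standard error (SE) after the ± sign. As a check of the tissue, 9 oocyte genes outside the members (Zp1, Zp2, Zp3, Gdf9, Bmp15, H1foo, Nlrp5, Zar1 and Oosp1) were summed. In young ovaries of experiment 1 the sum ran from 160 to 263 CPM, with all 9 genes detected in every library. Untreated aged ovaries held 3.35 to 10.5 CPM in experiment 1 and 2.33 to 8.93 in experiment 2. Sums were 2.95 to 8.90 CPM with TRi-1 and 0.629 to 4.91 with auranofin. In experiment 2, 4 young libraries held 45.3 to 142 CPM with all 9 genes detected, but young replicate 3 held 3.53 CPM, from 30 counts of Gdf9 and 1 of Zp1. That library lies in the range of the aged ovaries for these genes, so the changes of members with age in experiment 2 are given with and without it, and those of other genes where it altered a count or a call. It also had the lowest sum of 12 theca and steroid-producing cell markers of all libraries (68.9 CPM). In bulk ovary, fewer cells of a type and less RNA per cell cannot be told apart.

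Sums over the 7 germ cell members, that is Figla, Nobox, Lhx8, Sohlh1, Sohlh2, Ddx4 and Dazl, followed the same split. They came to 12.8 to 25.2 CPM in young ovaries of experiment 1 and 4.00 to 14.1 CPM in the 4 young libraries of experiment 2 that held oocyte transcripts. Young replicate 3 of experiment 2 stood at 0.114 CPM, from 1 count of Ddx4. Aged ovaries ran from 0 to 2.71 CPM untreated and 0.966 to 2.67 with TRi-1 in experiment 1, and from 0.246 to 2.26 untreated and 0.898 to 2.05 with auranofin in experiment 2. Aged replicate 3 of experiment 1 had no count of any of the 7 genes. Dazl and Nobox made up most of the sum in young ovaries of experiment 1 (means of 9.31 and 4.57 of 17.5 CPM). The split of the sum is therefore not a trait of each gene. Lhx8, Ddx4 and, in experiment 1, Sohlh1 overlapped between young and aged ovaries.

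**Figure D1:**
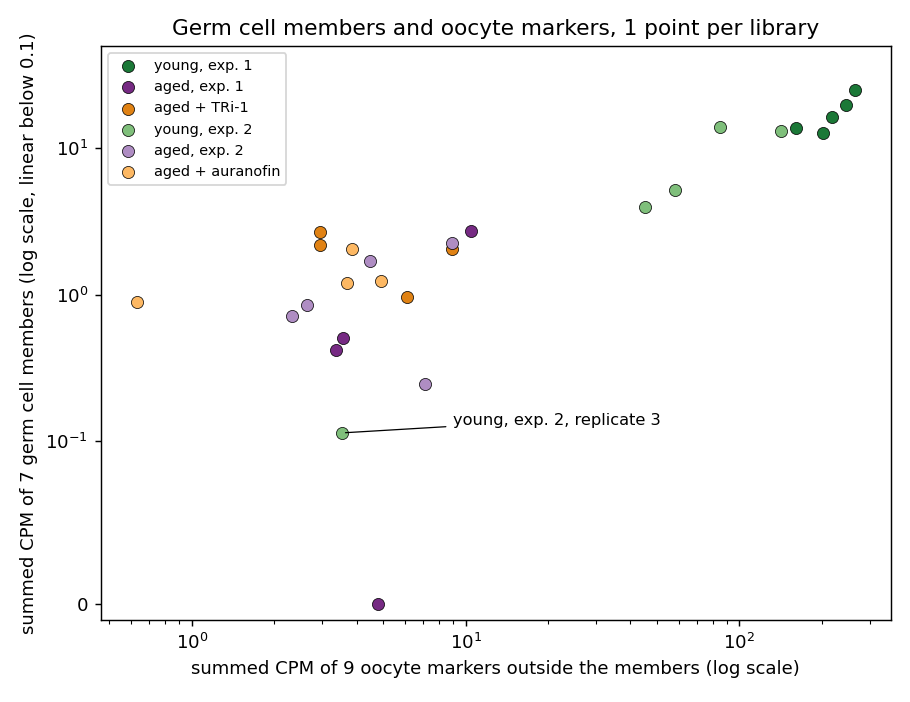
Summed CPM of the 7 germ cell members (vertical, log scale that is linear below 0.1) against summed CPM of 9 oocyte markers outside the members (horizontal, log scale), with 1 point per library. The young libraries lie at the upper right except replicate 3 of experiment 2, at 3.53 and 0.114 CPM, and aged replicate 3 of experiment 1 lies at 0 on the vertical axis.

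The oocyte transcription factors Figla and Nobox were present in young ovaries and nearly absent from aged ones, treated or not. Figla, which activates the zona pellucida genes, gave 18, 9, 2, 7 and 7 counts in the 5 young ovaries of experiment 1 and 2, 19, 0, 8 and 6 in those of experiment 2. All 17 aged libraries, treated or untreated, had 0 counts of Figla. Every young library of experiment 1 was thus above every aged one, and in experiment 2 only young replicate 3 was not. With a floor of 3 counts over the aged group, Figla was at least 16.2-fold lower in untreated aged than in young ovaries of experiment 1 (1.13 ± 0.625 CPM in young, SD, n = 5) and at least 15.1-fold lower in experiment 2 (0.823 ± 1.05 CPM in young, SD, n = 5). Without young replicate 3 the latter was at least 18.5-fold (1.03 ± 1.09 CPM, SD, n = 4). Its counts were too low for the filter of the main edgeR quasi-likelihood test. Without a filter the Benjamini-Hochberg adjusted p was 0.0108 for age in experiment 1 and 0.063 in experiment 2, the latter 0.039 without young replicate 3.

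Nobox, the homeodomain activator of oocyte growth factor genes, gave 28, 29, 20, 34 and 51 counts in young ovaries of experiment 1 and 0 in each of the 4 untreated aged ones. In experiment 2 the young libraries gave 2, 18, 0, 17 and 21 counts, and the aged ones 0, 1, 0, 0 and 0. The groups were apart in experiment 1, while in experiment 2 only the empty young replicate 3 overlapped the aged group. Levels in young ovaries were 4.57 ± 1.67 CPM (SD, n = 5) in experiment 1 and 1.23 ± 1.08 CPM (SD, n = 5) in experiment 2, or 1.53 ± 0.961 CPM (SD, n = 4) without its replicate 3. Nobox was at least 60.9-fold lower in aged ovaries of experiment 1, and the young-to-aged ratio in experiment 2 was 75.3 (95% counting interval 13 to 3024, counting error only), or 92.1 (15.9 to 3699) without young replicate 3. The fitted change was -8.36 ± 1.19 (edgeR adjusted p = 1.6e-04) in experiment 1. Against a group without counts its size depends on the prior count and is no bound. Nobox passed the filter of that fit only with the young libraries, so nothing is read from this p-value. In experiment 2 Nobox did not reach the filter; without one, the adjusted p was 0.046, or 0.021 without young replicate 3. With TRi-1 Nobox gave 0, 0, 0 and 2 counts, and with auranofin 0 in all 4 libraries.

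Sohlh1 and Sohlh2, partners in early oocyte differentiation, were sparse even in young ovaries. Sohlh1 gave 2, 0, 4, 16 and 0 counts in young and 7, 4, 0 and 0 in aged ovaries of experiment 1, so that these groups overlapped. In experiment 2 it gave 2, 13, 0, 13 and 4 counts in young and 0 in all 5 aged ovaries, which makes it at least 13.8-fold lower in aged ones (16.9-fold without young replicate 3). Treated aged ovaries gave 0, 0, 10 and 0 counts with TRi-1 and 10, 3, 0 and 0 with auranofin. The second of the pair, Sohlh2, gave 6, 4, 0, 2 and 2 counts in young ovaries of experiment 1, 1 count in 1 young library of experiment 2 and 0 in all aged libraries; it was at least 5.26-fold lower in aged ovaries of experiment 1. Neither gene passed the filter. Without it, the unfiltered test for age over both experiments gave an adjusted p of 0.041 for Sohlh1 and 0.042 for Sohlh2. In experiment 2 alone, with all its libraries, the unfiltered test called neither gene. Without young replicate 3 the unfiltered edgeR adjusted p in experiment 2 was 0.039 for Sohlh1 and 0.45 for Sohlh2. The call of Sohlh2 rests on 15 counts in all, with at most 6 in a library.

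Lhx8, a LIM-homeodomain factor of early follicle formation, did not share this pattern of young-only counts. Young ovaries gave 7, 0, 0, 29 and 0 counts in experiment 1 and 3, 15, 0, 10 and 6 in experiment 2. Untreated aged ovaries gave 6, 0, 0 and 0, and 4, 19, 4, 25 and 0. In experiment 2 the aged mean (0.892 ± 0.984 CPM, SD, n = 5) was close to the young mean (0.771 ± 0.811, SD, n = 5), with a change of 0.19 ± 1.14 (edgeR adjusted p = 0.95; -0.12 ± 1.10 and adjusted p = 0.97 without young replicate 3). The 95% interval of -2.04 to 2.43 leaves room for a sizeable change in either direction. In aged replicates 1 to 5 of experiment 2, in order, the 9 oocyte markers summed to 2.33, 4.48, 2.63, 8.93 and 7.13 CPM. Replicates 2 and 4 had the most Lhx8 counts, while replicate 5 had 0. A relation between Lhx8 and these sums was not tested.

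Of the germ cell RNA regulators, Dazl fell with age in both experiments and Ddx4 was too sparse for the main test. Ddx4, an RNA helicase of the germ line, gave 4, 15, 0, 0 and 6 counts in young and 7, 1, 0 and 0 in aged ovaries of experiment 1, and 12, 6, 1, 7 and 3 in young and 6, 0, 4, 0 and 3 in aged ovaries of experiment 2. The groups overlapped in both experiments, and the young-to-aged ratio was 3.52 (95% counting interval 1.54 to 9.04) and 2.90 (1.46 to 6.07; 3.42 and 1.71 to 7.19 without young replicate 3). With auranofin Ddx4 gave 5, 24, 7 and 1 counts (0.655 ± 0.627 CPM, SD, n = 4), in the range of the young ovaries of that experiment (0.616 ± 0.440, SD, n = 5), and with TRi-1 3, 3, 0 and 2. Ddx4 did not pass the filter in any comparison. The intervals of its ratios cover counting error only and not the spread between ovaries. Without a filter and without young replicate 3, its change with age was -1.86 ± 1.21 in experiment 2 (edgeR adjusted p = 0.39). Over both experiments, again unfiltered and without that library, it was -1.72 ± 0.98 (edgeR adjusted p = 0.22). With all libraries the unfiltered test did not call Ddx4 in either experiment or over both. A fall of Ddx4 with age was thus not shown by these tests.

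Dazl, which controls translation of germ cell messages, gave 57, 48, 43, 123 and 69 counts in young and 2, 0, 0 and 5 in untreated aged ovaries of experiment 1. In experiment 2 it gave 19, 24, 0, 89 and 21 in young and 1, 0, 2, 0 and 0 in aged ovaries. All libraries of the young group in experiment 1 exceeded all aged ones, and in experiment 2 only young replicate 3 did not. Group levels were 9.31 ± 3.28 CPM in young (SD, n = 5) and 0.166 ± 0.205 in aged ovaries (SD, n = 4) of experiment 1, and 3.13 ± 3.30 and 0.0469 ± 0.0742 CPM (SD, n = 5 each) in experiment 2. Without replicate 3 the young level of experiment 2 was 3.91 ± 3.23 CPM (SD, n = 4). Dazl fell with age in both experiments, by 5.65 ± 0.80 on the log2 scale in experiment 1 (edgeR adjusted p = 7.1e-05) and by 5.74 ± 1.39 in experiment 2 (adjusted p = 0.015). Without young replicate 3 the second value was -6.07 ± 1.19 (edgeR adjusted p = 0.0042), or -6.08 ± 1.19 (adjusted p = 0.0024) with no filter. In both experiments Dazl passed the filter only with the young libraries. In a fit of only the young and untreated aged libraries of experiment 2, or with a mean of at least 5 CPM required, Dazl did not reach the filter and had no test. With the replicate number entered as a block, the change in experiment 2 was -4.90 and was not called (edgeR adjusted p = 0.070). The age effects were not shown to differ between the experiments (edgeR adjusted p = 0.98).

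Young ovaries of experiment 2 held less Dazl and Nobox than those of experiment 1, and also less of the 9 oocyte markers. The ratio of Dazl to the oocyte marker sum, which does not contain it, was 4.21 ± 0.812% in young ovaries of experiment 1 (SD, n = 5) and 4.94 ± 3.56% in the 4 libraries of experiment 2 other than replicate 3 (SD, n = 4). The corresponding ratios of Nobox were 2.09 ± 0.565% and 1.80 ± 1.07%, and those of Figla 0.565 ± 0.427% and 1.02 ± 0.593%. For each gene the difference between experiments in this ratio was smaller than the larger SD; it was not tested.

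**Figure D2:**
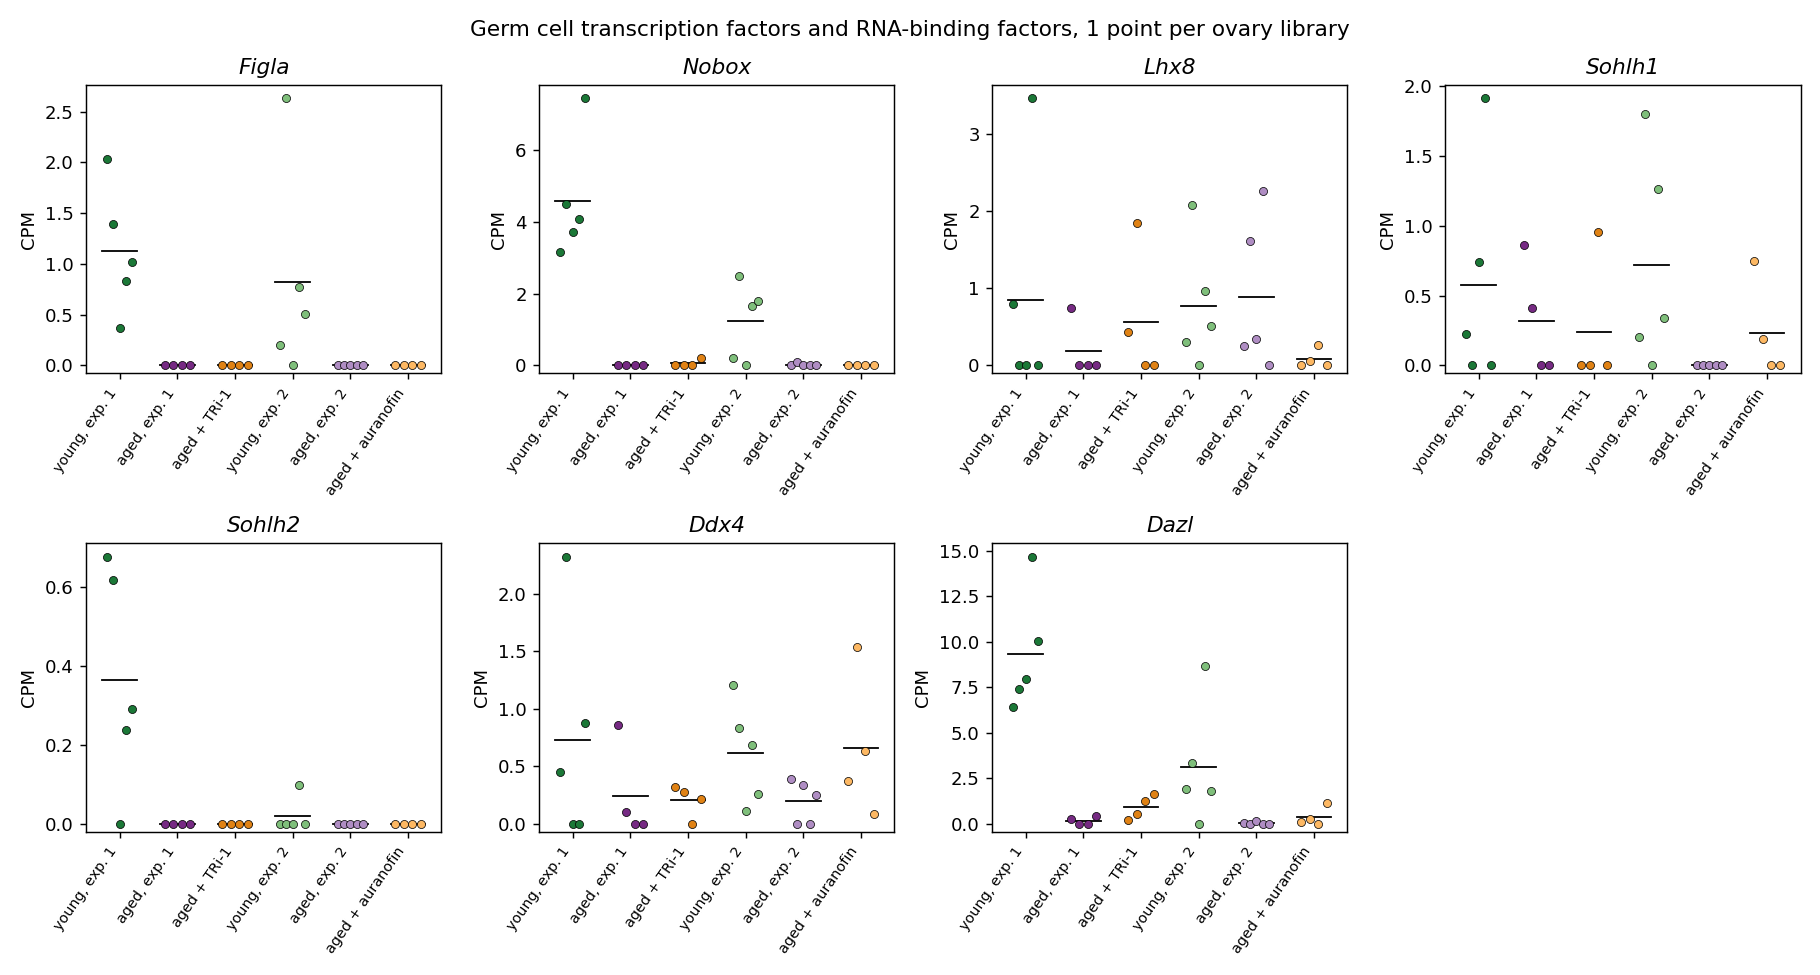
CPM of Figla, Nobox, Lhx8, Sohlh1, Sohlh2, Ddx4 and Dazl (vertical axis, a separate scale per gene) in the 6 groups, with 1 point per library and a line at the mean. Figla is at 0 in every aged library, Dazl and Nobox are highest in young ovaries of experiment 1, and Lhx8 and Ddx4 overlap between young and aged ovaries.

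Kit and its ligand were detected in all 27 libraries. Kit, the receptor tyrosine kinase of oocytes and also of mast cells and melanocytes, stood at 5.76, 3.41, 5.74, 5.85 and 9.61 CPM in young and 10.1, 3.98, 1.78 and 5.28 CPM in aged ovaries of experiment 1. In experiment 2 the young libraries held 5.11, 6.51, 7.98, 8.74 and 9.34 CPM and the aged ones 5.36, 3.30, 6.36, 3.16 and 2.13. The groups overlapped in both experiments: aged replicate 1 of experiment 1 was the highest of all 27 libraries. The change with age was -0.20 ± 0.43 in experiment 1 (edgeR adjusted p = 0.75) and -0.88 ± 0.35 in experiment 2 (adjusted p = 0.13), with 95% intervals of -1.03 to 0.64 and -1.57 to -0.20. These intervals, unlike the p-values, are not adjusted over genes. Without young replicate 3 the second value was -0.86 ± 0.37 (edgeR adjusted p = 0.16). Over both experiments it was -0.55 ± 0.27 (edgeR adjusted p = 0.12), or -0.54 ± 0.28 (adjusted p = 0.14) without young replicate 3 of experiment 2; without aged replicate 1 of experiment 1 it was -0.83 (adjusted p = 0.021). In experiment 1 the direction rested on single libraries, with 0.020 without young replicate 5 and 0.037 without aged replicate 3.

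KIT is also carried by mast cells, of whose 10 tested markers 4 rose and 1 fell in experiment 1 and 3 rose in experiment 2, against 18.5% and 5.86% of all tested genes higher and 16.4% and 4.59% lower. The sum of all 12 mast cell markers ran from 173 to 313 CPM in young and 325 to 522 CPM in aged ovaries of experiment 1, and from 154 to 341 and 292 to 392 CPM in experiment 2. The 7 melanocyte markers, which include the transcription factor Mitf that other cells share, summed to 17.8 to 33.3 CPM in young and 30.7 to 52.4 CPM in aged ovaries of experiment 1, with 2 to 4 of the 7 detected. In experiment 2 they summed to 16.1 to 29.2 and 30.7 to 49.3 CPM. The part of these cells in the Kit values was not tested.

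Kitl, the ligand made by granulosa cells, stood at 29.7, 47.1, 31.8, 31.5 and 45.7 CPM in young and 19.8, 43.6, 19.4 and 29.2 CPM in aged ovaries of experiment 1. In experiment 2 the young libraries held 38.7, 50.1, 8.66, 37.5 and 44.7 CPM and the aged ones 16.9, 20.8, 20.5, 31.5 and 36.8. Young replicate 3, the library without most oocyte transcripts, was the lowest of all 27 for Kitl; the other 4 young libraries of experiment 2 lay above all 5 aged ones. The change with age was -0.39 ± 0.25 in experiment 1 (edgeR adjusted p = 0.25) and -0.51 ± 0.39 in experiment 2 (adjusted p = 0.48; -0.76 ± 0.29 and adjusted p = 0.12 without young replicate 3). Over both experiments Kitl changed by -0.46 ± 0.24 (edgeR adjusted p = 0.15), which became -0.58 ± 0.20 (adjusted p = 0.021) without young replicate 3 of experiment 2. Without aged replicate 2 of experiment 1, the highest of its group, the change was -0.69 in experiment 1 (edgeR adjusted p = 0.037) and -0.66 over both (adjusted p = 0.048).

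The sum of 18 granulosa and pregranulosa markers ran from 1063 to 2081 CPM in young and 456 to 588 CPM in aged ovaries of experiment 1, and from 321 (young replicate 3) to 1600 and 276 to 1020 CPM in experiment 2. The granulosa regulator Foxl2, a defining marker, was at 16.2 ± 5.71 CPM in young (SD, n = 5) and 4.90 ± 1.84 in aged ovaries (SD, n = 4) of experiment 1. In experiment 2 Foxl2 was at 23.9 ± 12.2 CPM in young and 7.17 ± 2.84 in aged ovaries (SD, n = 5 each). Young replicate 3, lowest of its group for Kitl and for the granulosa sum, was the highest of its group for Foxl2 (39.0 CPM). Without that library the young level of Foxl2 was 20.1 ± 10.1 CPM (SD, n = 4). Wnt4, of the same list, went the other way in experiment 1, from 44.4 ± 7.43 CPM in young to 106 ± 19.2 in aged ovaries. The part of granulosa cell content in the Kitl values was not tested.

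Among Kit, Kitl and Taf4b, only Taf4b (chr18:14783245-14900359, plus strand) passed the main test with age when all libraries were kept. It stood at 16.3, 18.6, 21.1, 14.1 and 17.9 CPM in young and 11.0, 7.85, 11.4 and 5.70 CPM in aged ovaries of experiment 1, without overlap. In experiment 2 the young libraries held 13.1, 40.7, 9.92, 8.35 and 12.7 CPM and the aged ones 7.43, 6.34, 10.4, 8.39 and 11.6, with overlap and with young replicate 2 far above the rest. Taf4b fell by 0.96 ± 0.34 on the log2 scale in experiment 1 (edgeR adjusted p = 0.035). That call was lost without young replicate 2, 3 or 5 (edgeR adjusted p = 0.062, 0.066 and 0.058) or without aged replicate 2 or 4 (adjusted p = 0.078 and 0.11), while the value stayed between -1.15 and -0.80 with any 1 library left out. The change in experiment 2 was -0.95 ± 0.40 (edgeR adjusted p = 0.16), or -0.34 without young replicate 2 (adjusted p = 0.54) and -1.09 ± 0.41 without replicate 3 (adjusted p = 0.11). Over both experiments the change was -0.95 ± 0.27 (edgeR adjusted p = 0.0072), between -1.06 and -0.64 with any 1 library left out (-1.02 without young replicate 3 of experiment 2).

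**Figure D3:**
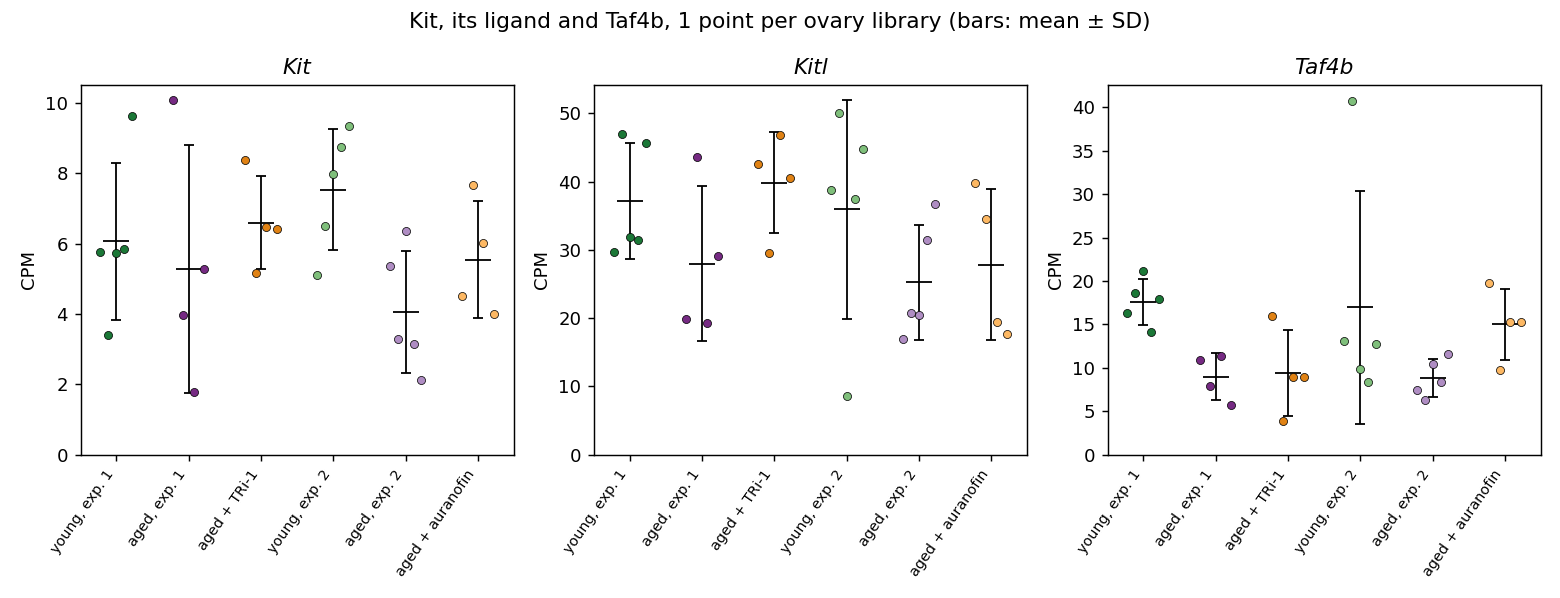
CPM of Kit, Kitl and Taf4b (vertical axis, a separate scale per gene) in the 6 groups, with 1 point per library and bars for mean ± SD. Kit and Kitl overlap between young and aged ovaries, Kitl is lowest in a young library at 8.66 CPM, and 1 young library of experiment 2 holds 40.7 CPM of Taf4b.

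Counting over the members, 5 of 10 passed the filter in experiment 1, of which 3 were lower in aged ovaries (Nobox, Dazl and Taf4b) and 0 higher at an edgeR adjusted p under 0.05. In that comparison 16.4% of all tested genes were lower and 34.9% were called in either direction. In experiment 2 also 5 passed the filter and 1 was lower (Dazl), against 4.59% of all tested genes lower and 10.5% called. Over both experiments 6 passed and 3 were lower (Nobox, Dazl and Taf4b), against 17.8% of all tested genes lower and 35.3% called; without young replicate 3 of experiment 2 Kitl joined them, making 4. A gene with counts in young ovaries alone passes the filter only through that group, so nothing is read from the shares of filtered members. With no filter all 10 were tested, and 4 were lower in experiment 1 (10.1% of all genes), 2 in experiment 2 (2.58%; 4 without young replicate 3) and 6 over both (12.4%; 7 without young replicate 3). The 6 were Figla, Nobox, Sohlh1, Sohlh2, Dazl and Taf4b. No member was higher in aged ovaries in any of these fits. The difference between the 2 age effects was called by edgeR for 0 of 6 members (0 at an unadjusted p under 0.05, 0 with DESeq2), as for 0% of all tested genes.

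**Figure D4:**
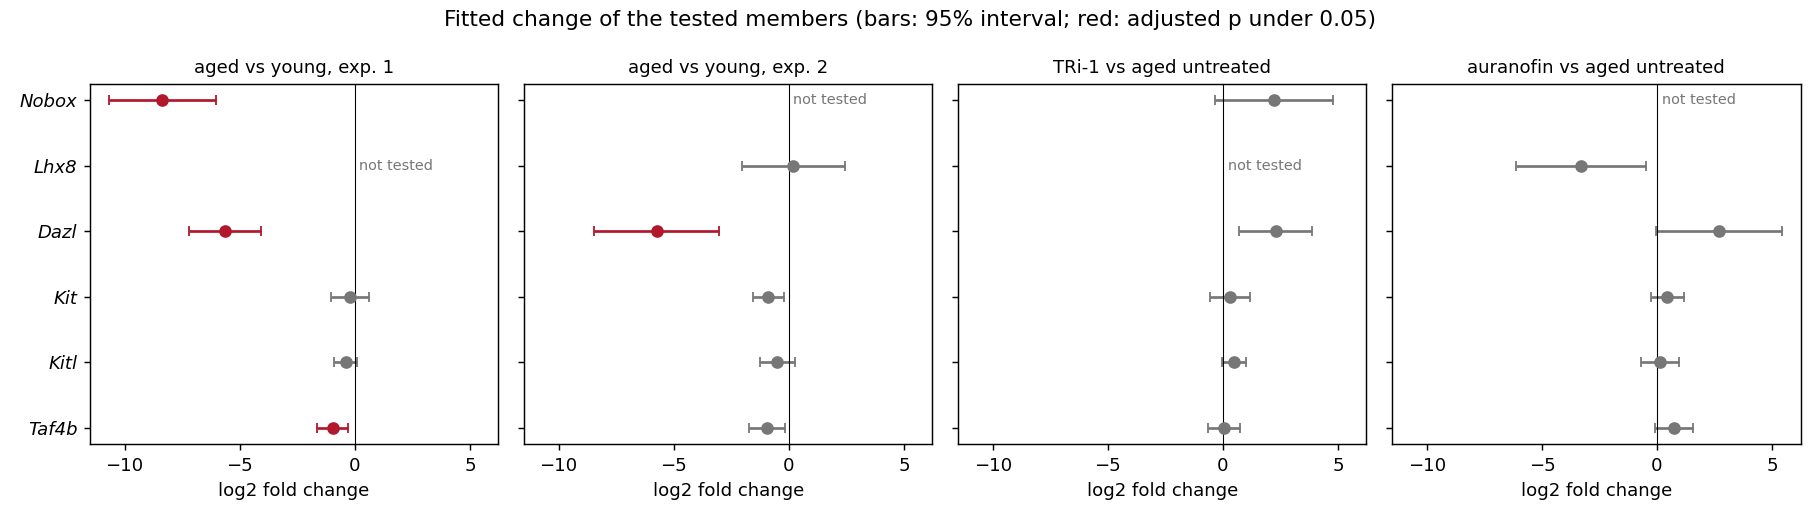
Fitted log2 fold change (horizontal axis) of the 6 members tested in at least 1 of 4 comparisons, with bars for the 95% interval and red for an edgeR adjusted p under 0.05; the size of the Nobox value depends on the prior count because 1 group had no counts. Nobox, Dazl and Taf4b are red in experiment 1, Dazl alone in experiment 2, and none with TRi-1 or auranofin. Nobox and Dazl passed the filter only with the young libraries.

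Whether thioredoxin reductase inhibitors altered these genes in aged ovaries was the next comparison; it shares the untreated aged libraries with the age comparison. With TRi-1 edgeR called 0 of the 5 tested members (1 at an unadjusted p under 0.05, 0 with DESeq2), against 0.418% of all tested genes. That share ran from 0% to 0.992% with 1 library left out and was 3.66% with DESeq2. With auranofin it also called 0 of 5 (1 at an unadjusted p under 0.05, 0 with DESeq2), against 0.0184%. Leaving out any 1 library gave no call in either comparison.

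Dazl was the member with an unadjusted p under 0.05 for TRi-1. The treated ovaries gave 2, 6, 13 and 15 counts against 2, 0, 0 and 5 in untreated aged ones, or 0.908 ± 0.641 against 0.166 ± 0.205 CPM (SD, n = 4 each). The groups overlapped, the treated-to-untreated ratio was 5.23 (95% counting interval 2.29 to 13.9), and the fitted change was 2.30 ± 0.81 (edgeR adjusted p = 0.17). The treated level stayed below every young library of experiment 1, the lowest of which held 6.44 CPM. With auranofin Dazl gave 1, 4, 0 and 14 counts against 1, 0, 2, 0 and 0, a ratio of 7.58 (95% counting interval 2.23 to 40.0). That change was 2.69 ± 1.40 (edgeR adjusted p = 0.75), or 1.12 without auranofin replicate 4. The sums of the 9 oocyte markers overlapped between treated and untreated aged ovaries: 2.95 to 8.90 CPM with TRi-1 against 3.35 to 10.5 untreated, and 0.629 to 4.91 with auranofin against 2.33 to 8.93. In TRi-1 replicates 1 to 4, in order, these sums were 6.12, 2.95, 2.95 and 8.90 CPM, with 3, 3, 2 and 8 of the 9 markers detected. Dazl gave 2, 6, 13 and 15 counts in the same order. A relation between Dazl and these sums was not tested.

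Lhx8 was the member with an unadjusted p under 0.05 for auranofin, with 0, 1, 3 and 0 counts in treated against 4, 19, 4, 25 and 0 in untreated aged ovaries. The groups overlapped and the change was -3.30 ± 1.44 (edgeR adjusted p = 0.68). With TRi-1 Lhx8 gave 4, 20, 0 and 0 counts against 6, 0, 0 and 0, and did not pass the filter.

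Kit held 8.37, 5.15, 6.47 and 6.40 CPM with TRi-1 and 4.50, 7.67, 6.02 and 3.99 with auranofin. Its change was 0.31 ± 0.44 with TRi-1 (95% interval -0.56 to 1.18, edgeR adjusted p = 0.79) and 0.44 ± 0.36 with auranofin (95% interval -0.28 to 1.15, adjusted p = 0.86). Kitl held 42.6, 29.5, 46.8 and 40.6 CPM with TRi-1 and 39.8, 34.6, 19.4 and 17.6 with auranofin. Both treated groups overlapped their untreated aged group. The changes of Kitl were 0.48 ± 0.27 (95% interval -0.04 to 1.00, edgeR adjusted p = 0.38) and 0.13 ± 0.41 (95% interval -0.67 to 0.94, adjusted p = 0.97).

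Taf4b held 16.0, 3.87, 8.94 and 8.90 CPM with TRi-1, a change of 0.05 ± 0.35 (95% interval -0.64 to 0.73, edgeR adjusted p = 0.97), whose sign turned without TRi-1 replicate 1 (-0.28). With auranofin it held 19.7, 9.78, 15.3 and 15.2 CPM, a mean of 15.0 ± 4.07 (SD, n = 4) against 8.85 ± 2.17 in untreated aged (SD, n = 5) and 17.0 ± 13.4 in young ovaries (SD, n = 5). Of the 4 treated libraries 3 lay above all untreated aged ones, and the change was 0.74 ± 0.42 (95% interval -0.08 to 1.57, edgeR adjusted p = 0.77). The effects of both agents differed for 0 of 6 members by edgeR (0 at an unadjusted p under 0.05, 0 with DESeq2), against 0.0172% of all tested genes; agent and experiment cannot be told apart in that test.

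By level, the highest group mean of Dazl and Nobox was that of young ovaries in experiment 1, followed by young ovaries in experiment 2, with all aged groups below 1 CPM. For Kit the order of means ran from young ovaries of experiment 2 (7.53 ± 1.72 CPM, SD, n = 5) through TRi-1 (6.60 ± 1.33, n = 4), young of experiment 1 (6.07 ± 2.23, n = 5), auranofin (5.55 ± 1.66, n = 4) and aged of experiment 1 (5.28 ± 3.52, n = 4) to aged of experiment 2 (4.06 ± 1.74, n = 5). Each step was smaller than the SD of either neighbour. For Kitl the order ran from TRi-1 (39.9 ± 7.36 CPM) through young of experiment 1 (37.2 ± 8.48), young of experiment 2 (35.9 ± 16.1), aged of experiment 1 (28.0 ± 11.4) and auranofin (27.9 ± 11.0) to aged of experiment 2 (25.3 ± 8.43), again with every step within the SD. For Taf4b the order ran from young of experiment 1 (17.6 ± 2.62 CPM) through young of experiment 2 (17.0 ± 13.4), auranofin (15.0 ± 4.07), TRi-1 (9.42 ± 4.98) and aged of experiment 1 (8.98 ± 2.70) to aged of experiment 2 (8.85 ± 2.17). Among these steps that from auranofin to TRi-1, groups of different experiments, exceeded the SD of both; it was not tested. Without replicate 3, young ovaries of experiment 2 came first for Kitl (42.8 ± 5.83 CPM, SD, n = 4) and Taf4b (18.7 ± 14.81) as well as for Kit (7.42 ± 1.97).

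Genes that the oocyte factors are known to control held most of their counts in young ovaries. The summed level of 20 such genes ran from 306 to 511 CPM in young and 16.9 to 21.2 CPM in untreated aged ovaries of experiment 1. In experiment 2 it ran from 93.8 to 264 CPM in 4 young libraries, stood at 20.1 CPM in young replicate 3 and ran from 21.2 to 34.7 CPM in untreated aged ovaries. The groups were thus apart except for young replicate 3, which lay below all aged libraries of its experiment. Without a filter all 20 were tested: 18 were lower and 0 higher in aged ovaries of experiment 1, against 10.1% of all genes lower, and 10 lower and 0 higher in experiment 2, against 2.58%. Without young replicate 3 the latter count was 14. With the filter the counts were 18 of 20 and 12 of 18, but 16 and 14 of those tested passed it only with the young libraries, so nothing is read from them. The list contains all 9 oocyte markers.

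Padi6, a maternal factor of the egg cytoplasm, stood at 27.1 ± 2.51 CPM in young (SD, n = 5) and 0.169 ± 0.240 in aged ovaries (SD, n = 4) of experiment 1. Zar1, needed for the passage from egg to embryo, stood at 8.01 ± 5.47 CPM in young and 0.0541 ± 0.121 in aged ovaries of experiment 2 (SD, n = 5 each; 10.02 ± 3.63 in young without replicate 3, n = 4). Leaving out any of the other 4 young libraries took Zar1 below the filter. With TRi-1 and with auranofin 0 of the list's tested genes were called.

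The 24 germ cell RNA and piRNA factors summed to 236 to 345 CPM in young and 30.1 to 37.9 CPM in untreated aged ovaries of experiment 1. In experiment 2 the sum ran from 105 to 206 CPM in 4 young libraries, stood at 26.1 CPM in young replicate 3 and ran from 33.9 to 45.2 CPM in untreated aged ovaries. Without a filter 8 of 24 were lower in experiment 1 and 6 of 23 in experiment 2 (also 6 without young replicate 3), and 0 were higher; over all genes 10.1% and 2.58% were lower. With the filter 12 were tested in each experiment and 7 and 6 were lower, where 3 and 5 of the 12 passed only with the young libraries. The testis and oocyte gene Tex15 went from 75.1 ± 18.5 CPM in young (SD, n = 5) to 1.82 ± 1.17 in aged ovaries (SD, n = 4) of experiment 1 and from 51.6 ± 32.9 to 2.18 ± 1.27 (SD, n = 5 each; 63.5 ± 22.1 in young without replicate 3, n = 4) in experiment 2. Gtsf1, a piRNA pathway factor, had 12.2 ± 1.96 CPM in young ovaries of experiment 1 and 0 counts in its untreated aged ones.

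Of 18 meiosis genes 15 and 17 had counts and were tested without a filter. In experiment 1, 5 were lower and 1 higher (Rec8), and in experiment 2, 1 was lower, against the same 10.1% and 2.58% of all genes lower. Mos, the kinase that holds the egg in meiotic arrest, had 8.26 ± 4.18 CPM in young ovaries of experiment 1 (SD, n = 5) and 0 counts in untreated aged ones.

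Genes on the route from KIT through PI3K to FOXO3 moved in both directions. All 27 were tested in each experiment: 10 rose, 3 fell and 14 did not pass in experiment 1, and 3 rose, 1 fell and 23 did not pass in experiment 2, against 18.5% and 5.86% of all tested genes higher and 16.4% and 4.59% lower. Without young replicate 3 the counts of experiment 2 were 5 and 0. The median change was 0.50 in experiment 1 and -0.03 in experiment 2. Among those that rose was Ptpn6, a phosphatase of blood cells that dampens receptor signals, from 9.71 ± 2.87 to 47.5 ± 10.9 CPM in experiment 1 (2.30 ± 0.27, edgeR adjusted p = 1.5e-05) and from 11.8 ± 3.41 to 58.7 ± 24.1 in experiment 2 (10.9 ± 3.15 in young without replicate 3). Pik3cd, the PI3K subunit of leukocytes, rose by 1.78 ± 0.20 in experiment 2 (edgeR adjusted p = 1.2e-04). The adaptor Grb2 rose by 1.57 ± 0.17 in experiment 1 (edgeR adjusted p = 8.7e-06). In the same libraries 14 of 14 leukocyte markers rose in experiment 1 and 13 of 14 in experiment 2 (12 without young replicate 3), their sum running from 142 to 282 CPM in young and 1780 to 3270 in aged ovaries of experiment 1, and from 118 to 336 and 1650 to 4823 CPM in experiment 2. The part of leukocytes in the signalling genes was not tested. FOXO3's own gene, chosen here after its value was seen, did not pass in experiment 1 (0.44, edgeR adjusted p = 0.063) or experiment 2 (-0.04, adjusted p = 0.94).

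Of the other subunits of TFIID, the complex of TAF4B, 15 of 18 were tested. In experiment 1, 1 rose, 5 fell and 9 did not pass, and in experiment 2, 0 rose, 1 fell and 14 did not pass. Over all tested genes 18.5% were higher and 16.4% lower in experiment 1, and 4.59% lower in experiment 2, so that 1 of 15 is near the background. Taf7 fell in both, from 16.4 ± 4.45 to 2.61 ± 0.990 CPM in experiment 1 (-2.62 ± 0.34, edgeR adjusted p = 3.8e-05) and from 9.18 ± 1.55 to 4.24 ± 1.58 in experiment 2 (-1.12 ± 0.30, adjusted p = 0.024). The call in experiment 2 was lost with any of 6 single libraries left out (young replicate 1 or 2, aged replicate 1, 3, 4 or 5), at an edgeR adjusted p of up to 0.063, and without a filter (0.066); without young replicate 3 it was -1.13 (0.031). Taf3 fell by 1.30 ± 0.22 on the log2 scale in experiment 1 and was higher with TRi-1 (10.3 ± 0.928 CPM untreated, 23.3 ± 4.08 treated, SD, n = 4 each; 1.15 ± 0.23, edgeR adjusted p = 0.042). That call did not hold when single libraries were left out: it was lost without any of 10 of the 13 (all but young replicates 3 and 4 and aged replicate 2), with a change of 1.07 to 1.29 and an adjusted p of up to 0.13. Fitting only the groups compared also ended it (edgeR adjusted p = 0.096). No other gene of the 15 lists was called in a treatment comparison of the main test.

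The dimer partners and cofactors of the oocyte factors, which other ovarian cells also express, showed 3 higher, 3 lower and 8 not passing of 14 in experiment 1 and 0, 2 and 12 in experiment 2. In experiment 1 both shares lie near those over all tested genes, 18.5% higher and 16.4% lower, and without young replicate 3 the lower count of experiment 2 was 1 of 14, against 4.59% of all tested genes with all libraries. Single genes among them are therefore given as values of those genes alone. Tcf4, a helix-loop-helix partner, went from 449 ± 105 to 255 ± 35.2 CPM in experiment 2 (SD, n = 5 each; -0.82 ± 0.23, edgeR adjusted p = 0.029). That call was lost with any of 7 single libraries left out (young replicate 1, 2 or 3, aged replicate 1, 2, 3 or 4), at an adjusted p of 0.051 to 0.079. Id2, which blocks helix-loop-helix dimers, went from 572 ± 139 CPM in young (SD, n = 5) to 311 ± 23.4 in aged ovaries (SD, n = 4) of experiment 1 (-0.87 ± 0.19, edgeR adjusted p = 0.0023). Lmo2, a LIM-domain cofactor that blood cells use, rose by 1.68 ± 0.37 in experiment 1 (edgeR adjusted p = 0.0024).

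Marker lists of other cells were counted in the same comparisons, where 18.5% of all tested genes were higher and 16.4% lower in experiment 1, and 5.86% and 4.59% in experiment 2. Of 16 tested granulosa markers 7 were lower and 1 higher (Wnt4) in experiment 1 and 3 lower in experiment 2 (5 without young replicate 3). Of 12 theca markers 2 were lower in experiment 1, near the background, and 0 in experiment 2 (3 without young replicate 3). The mast cell marker that fell in experiment 1 was Slc18a2, from 28.2 ± 4.96 to 1.75 ± 0.709 CPM. The single tested melanocyte marker, Mitf, was called higher in experiment 1 (0.61), a call lost without any of 10 single libraries and with RLE size factors (edgeR adjusted p = 0.051). Of 12 endothelial markers 6 and 0 were higher, and of 12 fibroblast markers 1 was higher and 4 lower in experiment 1 and 2 lower in experiment 2 (1 without young replicate 3). Of the hepatocyte markers 0 of 11 and 1 of 4 tested were lower, and of 7 red blood cell genes 7 and 1 were higher (0 in experiment 2 without young replicate 3).

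**Figure D5:**
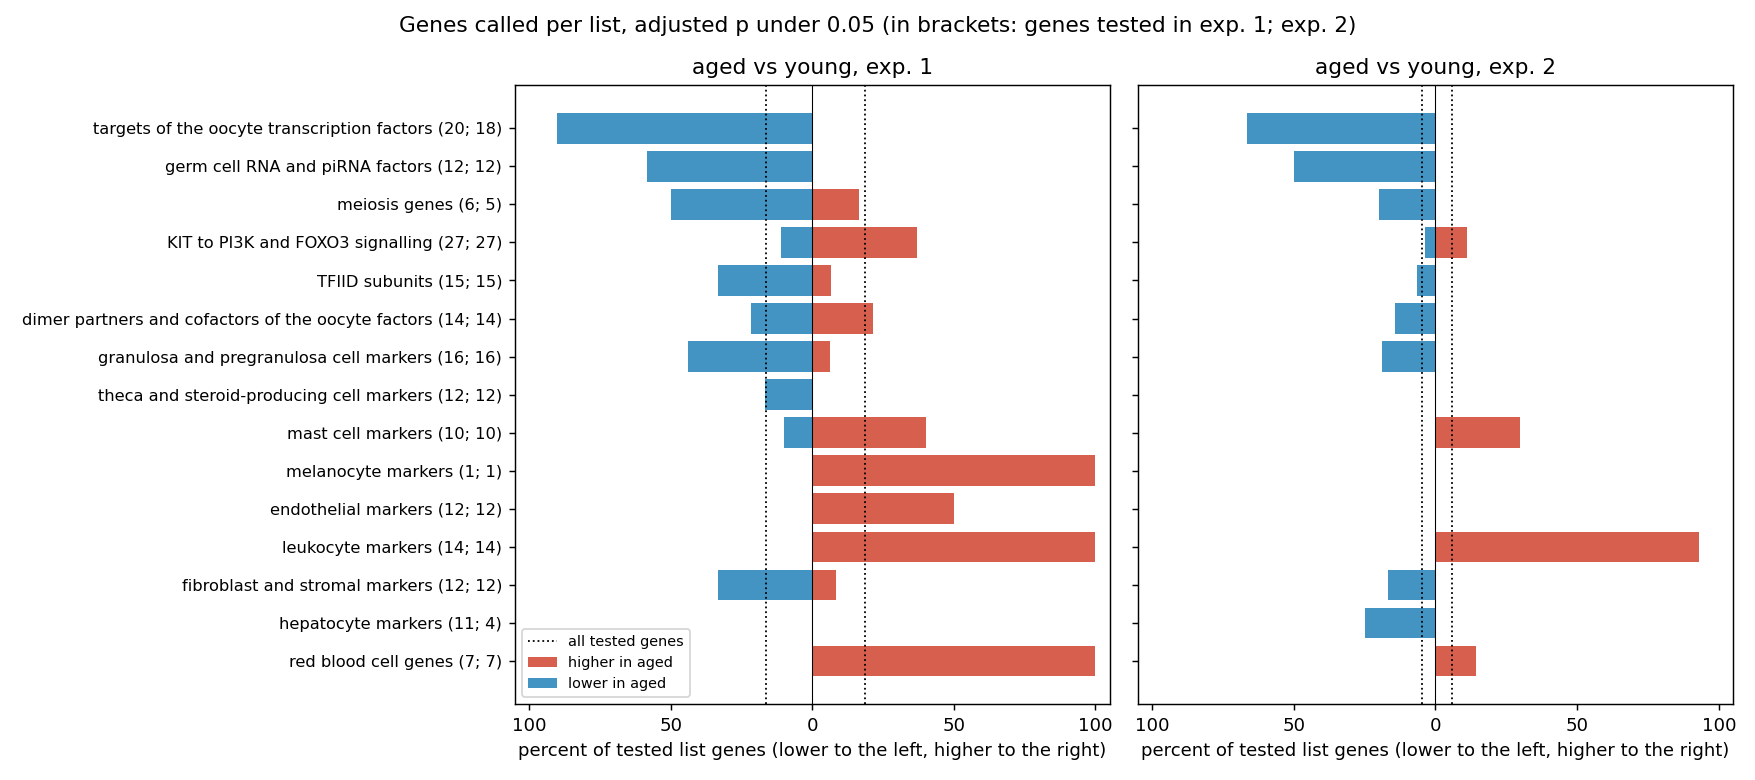
Percent of each list's tested genes called lower (to the left) or higher (to the right) in aged ovaries, for experiments 1 and 2, with dotted lines at the percentage over all tested genes and the number tested in brackets. Oocyte factor targets and germ cell RNA factors extend to the left in both experiments, with many of their tested genes passing the filter only with the young libraries, and leukocyte markers extend to the right; the melanocyte bar rests on 1 gene.

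Likeness to other genes was measured as the root mean square difference of centred log2 CPM over the 27 libraries, among 13780 genes. Nearest to Nobox were Tcl1b4 (0.47), Wee2 (0.53) and Rspo2 (0.58), against a median of 2.01 over all genes compared. Tcl1b4 held 4.81 ± 1.63 CPM in young ovaries of experiment 1 and 1.17 ± 0.755 in those of experiment 2 (SD, n = 5 each), with no count in any aged library. Nearest to Dazl were Fbxw26 (0.80), Car14 (0.88) and Oosp3 (0.92), against a median of 2.23. For Lhx8 the nearest gene, Serp2, differed by 0.91 against a median of 1.53.

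The nearest genes of Kit were Cdk13 (0.46), Phactr4 (0.47) and Zbtb43 (0.48), against a median of 0.85, and none of these marks germ cells. Those of Kitl were Pdp1 (0.34), Fmnl2 (0.37) and Psd3 (0.39), against a median of 0.86. Taf4b lay nearest to Fndc3b (0.42), Srsf10 (0.44) and Clk1 (0.44), against a median of 0.92. Srsf10, a splicing regulator, went from 131 ± 17.3 CPM in young (SD, n = 5) to 64.0 ± 13.8 in aged ovaries (SD, n = 4) of experiment 1, and stood at 116 ± 23.4 with auranofin (SD, n = 4) against 78.7 ± 13.1 in untreated aged ovaries of experiment 2 (SD, n = 5).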

How the data were processed

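The files hold whole-number counts per gene for 27 ovary libraries in 1 table, as deposited and not scaled between libraries; 0 columns belonged to other samples. RNA was extracted with an RNeasy kit and libraries were made with a QuantSeq kit, per the labels' protocols. RSEM 1.2.3, DESeq2 and mm10 appear in the submitters' processing notes with no role given; annotation, filters and strand of counting are not given in the sources used here. Of 51789 gene IDs, 51596 were matched to GENCODE M21.

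Groups came from the labels. Counts were tested in R 4.3.3 with edgeR 4.0.16 (TMM, filterByExpr, quasi-likelihood F test, Benjamini-Hochberg adjustment over all genes tested, threshold 0.05). The 13 libraries of experiment 1 and the 14 of experiment 2 were each fitted with 1 mean per group, and age over both experiments and differences of effects in 1 fit of all 27. SE was taken as the fitted change over the root of its F statistic. The 95% intervals of fitted changes used this SE with a normal quantile and no adjustment over genes. With so few libraries they are narrower than the F test would give. Log2 CPM used a prior count of 2. A fold against a group without counts used a floor of 3 counts over the group; ratios carry exact 95% intervals, and both cover counting error only. The tests were checked on simulated counts with 200 changed genes.

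All 10 members were named in every comparison. From each other list the text draws on up to 3 called genes with the smallest p for age in experiment 1 and up to 2 in each other comparison, and per tested member on the 3 nearest genes that average 1 CPM or more; part of these are printed. The genes named beside a count of 1 (Rec8) and FOXO3's gene fall outside this rule; both were picked with their values in view. The members, the 15 lists and the tests were chosen with earlier results of these data known. No library within a group was a copy of another: over 48 pairs chi-square values per gene lay between 22.4 and 227. Alternatives were RLE size factors, DESeq2 1.42.0, no filter or a mean of at least 5 CPM, other sets of samples in the fit, each library left out, and the replicate number entered as a block. Figures were drawn with matplotlib 3.10.9.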

Additional observations from a re-analysis of the deposited data

Results flagged for a closer look

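Within groups of 4 or 5 libraries, a library was singled out where its gap to the next one was large against the group's whole range, which chance gives for about 1 group in 20. This held for 8 of the 49 pairs of a member and a group with any spread; many of these groups are mostly at 0, so a single library with counts meets the criterion by itself.

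Taf4b stood at 40.7 CPM (294 counts) in young replicate 2 of experiment 2, the next library of its group being at 13.1 CPM. Lhx8 stood at 3.46 CPM (29 counts) in young replicate 4 of experiment 1, with the next at 0.791 CPM. Aged replicate 1 of experiment 1 was the highest of its group for Lhx8 (0.739 CPM, 6 counts) and for Ddx4 (0.862 CPM, 7 counts). It also had the highest oocyte marker sum of that group, 10.5 CPM, from 64 counts of Gdf9, 20 of Oosp1 and 1 of Nlrp5. Sohlh1 stood at 0.951 CPM (10 counts) in TRi-1 replicate 3, where the other 3 libraries had 0. Nobox stood at 0.217 CPM (2 counts) in TRi-1 replicate 4 and at 0.0845 CPM (1 count) in aged replicate 2 of experiment 2. Sohlh2 stood at 0.0971 CPM (1 count) in young replicate 4 of experiment 2.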

How the results depend on the processing

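Counts of called members were recomputed under each alternative. With a mean of at least 5 CPM required, 3 members stayed in the fit and the counts were 1 (age in experiment 1), 0 (age in experiment 2) and 1 (age over both). With no filter they were 2 for age in experiment 2 and 6 over both. For age in experiment 2 the count was 2 with all 27 libraries in 1 fit and 0 with only the groups compared, where Dazl did not pass the filter. With each library left out in turn it ran from 1 to 2 for age in experiment 2 and from 3 to 7 over both; leaving out a library of a group of 4 lowers the filter, so that up to 9 members were tested. In 2 alternatives chosen after seeing the data, without the 4 libraries of experiment 2 least like their group the counts were 2 for age in experiment 2 and 6 over both, and without the 2 of experiment 1 least like theirs 7 over both. RLE size factors and DESeq2 gave the same counts as edgeR in all 7 comparisons. No alternative called a member for a treatment or a difference of effects.

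Same-numbered libraries of different groups did not deviate together in experiment 1 (correlations from -0.15 to 0.068). In experiment 2 the correlations were mixed, from -0.25 to 0.43, and the 6 of all 25 pairs that lay over 0.1 were of that experiment. The numbers were not taken as pairs, but for experiment 2 a partial pairing is not excluded. With replicate number as a block, the count for age in experiment 2 was 0 (Dazl -4.90, edgeR adjusted p = 0.070), and Taf4b in experiment 1 had an adjusted p of 0.052. Taf4b in experiment 1 also lost its call in the fit of all 27 libraries (0.068) and without the 2 libraries of experiment 1 (0.069). The fits without libraries that stood apart gained Kit (-0.85, adjusted p = 0.025) and Kitl (-0.54, 0.022) for age over both.

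Signs turned only for values that no test called, among them Lhx8 for age in experiment 2 with the block (-0.16). For differences of age effects Dazl became 0.0022 with RLE, 0.92 with the block and 0.21 without the 2 libraries. For differences of treatment effects Dazl became -0.79 with the block and -0.74 without the 4 libraries, Kit -0.028 with the block and -0.43 without the 2 libraries, and Kitl 0.049 without the 4. Leave-one-out ranges that cross 0 were -0.69 to 0.037 (Kit, age in experiment 1), -0.28 to 0.34 (Taf4b, TRi-1), -0.12 to 0.51 (Lhx8, age in experiment 2) and -0.092 to 0.31 (Kitl, auranofin). Among differences of age effects they were -0.97 to 1.08 (Dazl), -0.35 to 0.23 (Kitl) and -0.14 to 0.65 (Taf4b), and among differences of treatment effects -1.25 to 1.27 (Dazl) and -0.43 to 0.34 (Kit). Unless stated, the cause was not tested. At these depths a change in a gene of a few counts per library was not detectable by the main test, and 4 to 5 members per comparison stayed below its filter.

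Over all genes, the number called for TRi-1 was 67, against 587 with DESeq2, 167 with no filter, 173 with a mean of at least 5 CPM, 2 in the fit of all 27 libraries, 1 with the block, 0 with only the groups compared and 0 to 164 with 1 library left out. For auranofin it was 3, against 76 with DESeq2, 11 with the block, 10 in the fit of all 27 and 8 without the 4 libraries. For differences of age effects it was 0, against 172 with DESeq2, 6 at 5 CPM, 2 without the 4 libraries, 1 without the 2 and up to 25 with 1 left out. For differences of treatment effects it was 3, against 93 with DESeq2, 5 at 5 CPM, 17 without the 4, 1 with the block and 2 to 10 with 1 left out. The counts per list without a filter or without young replicate 3 of experiment 2, and the named list genes under these alternatives, were added after seeing the data.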
